A study of Saccharomyces cerevisiae with 4 samples.

Results

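The 10 genes described here encode the enzymes by which Saccharomyces cerevisiae turns pyruvate into ethanol, acetate and acetyl-CoA. They are the pyruvate decarboxylase genes PDC1, PDC5 and PDC6, the alcohol dehydrogenase genes ADH1, ADH2 and ADH4, the aldehyde dehydrogenase genes ALD4 and ALD6, and the acetyl-CoA synthetase genes ACS1 and ACS2. The rule that picks them is their names and uses no measured value, although the group was proposed with earlier results of these data known. They were located by symbol in the annotation of genome build R64-1-1, where all 10 were found among the 6002 nuclear protein-coding genes, 5710 of which have at least 300 bp and were counted. The 5′ ends of capped, polyadenylated RNA were sequenced in 4 libraries, 2 from BY4741 and 2 from set2Δ, described as biological duplicates, so that each strain has n = 2. BY4741 is the wild-type strain, of mating type a, with the deletions his3Δ1, leu2Δ0, ura3Δ0 and met15Δ0. The set2Δ strain lacks SET2, which encodes the methyltransferase of lysine 36 of histone H3, in the same background, and so shares these 4 auxotrophic deletions. Both strains were grown in YPD with 1% glucose, as the sample labels have it, at 30 °C to an optical density of 1. The question put to the 10 genes was whether the number and the position of their capped 5′ ends differed between the strains at the gene start, inside the gene and on the opposite strand.

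In fermenting yeast, pyruvate decarboxylase splits pyruvate into acetaldehyde and carbon dioxide, and alcohol dehydrogenase reduces the acetaldehyde to ethanol. Part of the acetaldehyde is instead oxidised to acetate by aldehyde dehydrogenases, and acetyl-CoA synthetases activate the acetate to acetyl-CoA. On glucose the pathway runs mainly through Pdc1, Adh1, Ald6 and Acs2, whereas ADH2, ALD4 and ACS1 are known as genes repressed by glucose and used for growth on ethanol or acetate. Set2 methylates nucleosomes behind elongating RNA polymerase II, and its loss is known for transcripts that start inside genes.

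The libraries held 375442 to 452888 counts in BY4741 and 1099482 to 1267578 in set2Δ, so set2Δ was sequenced 2.86 times as deeply as BY4741 by mean total. A count is a 5′ end at a given base of a given strand. In the part of SET2 beyond its first 200 bp there were 7 and 2 counts in the BY4741 libraries against 0 and 1 in the set2Δ libraries. The first 200 bp of SET2 and the 250 bp before it held 24 and 11 counts in BY4741 against 13 and 11 in set2Δ. The 5 fixed genes specific to mating type a gave 1034 to 2112 counts per library and the 3 of mating type alpha gave 5 to 43. LEU2 and MET17 (the MET15 locus) gave 0 counts and URA3 1 count in all. HIS3 gave at most 1 count per library beyond its first 200 bp. Its first 200 bp and the 250 bp before it, however, held 179 and 138 counts in BY4741 against 265 and 247 in set2Δ. Each library is a bulk culture, so fewer cells with a transcript and less transcript per cell cannot be told apart.

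The sequences below show where the RNA of the main genes began. The TATAAA element on the coding strand is shown in capitals for the 5 members with counts in which it lay 80 to 111 bp upstream of the main start, to set the element beside the start. The sequences are read from the R64-1-1 genome, 5′ to 3′ on the strand of the gene.

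ADH1 element (chrXV:160703-160732, minus strand, 90 bp before the main start): tgctatcaagTATAAAtagacctgcaatta
PDC1 element (chrXII:234203-234232, minus strand, 111 bp before the main start): aaaaaaaataTATAAAcaaggctctttcac
ADH2 element (chrXIII:874479-874508, minus strand, 106 bp before the main start): gcctatcacaTATAAAtagagtgccagtag
ALD4 element (chrXV:1039702-1039731, plus strand, 80 bp before the main start): tcggcggttaTATAAAtggggggggtttgt
ALD6 element (chrXVI:432450-432479, plus strand, 84 bp before the main start): tgatatcataTATAAAtgtaataagaagtt

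The main start of a gene is the base with the highest sum of scaled counts over the 4 libraries in its 5′ window, which covers the 250 bp before the gene and its first 200 bp. In each sequence the first capital is the base before the start and the second capital is the start itself.

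ADH1 start (chrXV:160623-160652, minus strand, 38 bp upstream of the coding sequence): ctttttctgcacaatatttCAagctatacc
PDC1 start (chrXII:234102-234131, minus strand, 30 bp upstream): tattttctactcataacctCAcgcaaaata
ALD6 start (chrXVI:432524-432553, plus strand, 44 bp upstream): tttatagaagaaaaaacatCAagaaacatc
ALD4 start (chrXV:1039772-1039801, plus strand, 48 bp upstream): tgggtgttaggattagaagTAtctggaaaa
ACS2 start (chrXII:447597-447626, minus strand, 31 bp upstream): ttgttatacacaaacagaaTAcaggaaagt
ADH2 start (chrXIII:874383-874412, minus strand, 55 bp upstream): ttcttggtaaatagaatatCAagctacaaa
ADH4 start (chrVII:14956-14985, plus strand, 183 bp upstream): tttgctgcctcaaatatctCAcactactag

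All 7 starts are a purine preceded by a pyrimidine, the pair at which yeast RNA polymerase II usually initiates. Over the members' 5′ windows, 106 of the 150 positions with at least 5 counts in 1 or more libraries (70.7%) had this pair, against 23.6% of all bases of these windows. On both strands of the 300 bases around each gene start (250 before and 50 after), TATAAA occurred in 8 of the 10 members and in 45.2% of 6001 genes, and TATATA, which can overlap it, in 7 members and in 32.3% of genes. CTTCC, the core of the Gcr1 site, occurred in 4 members and in 46.4% of genes, and TTGGAG, the core of the Adr1 site, in ALD4 alone and in 11.3% of genes. These letter matches describe the sequence and are not binding sites.

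At the gene start, with TMM scaling, the most used fermentation genes had fewer 5′ ends in set2Δ relative to the other genes, and ADH4 had more. The calls of ADH1 and ACS2 as lower were lost with the cyclic loess offsets described below. Of the 10 members, 8 had the at least 10 counts over the 4 libraries that the test required. Of these, PDC1, ADH1, ALD4, ALD6 and ACS2 were called lower in set2Δ, ADH4 was called higher, and PDC5 and ADH2 were not called (edgeR's quasi-likelihood test, Benjamini-Hochberg adjusted over 5047 genes, adjusted p below 0.1). Among all tested genes 30.2% were called lower and 32.3% higher. The median log2 fold change, set2Δ over BY4741, was -0.63 for the 8 members and 0.11 for all tested genes. The 5′ window has 450 bases in each member, so levels can be set side by side, in CPM, the count scaled to a TMM-scaled library of 1000000.

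**Figure D1:**
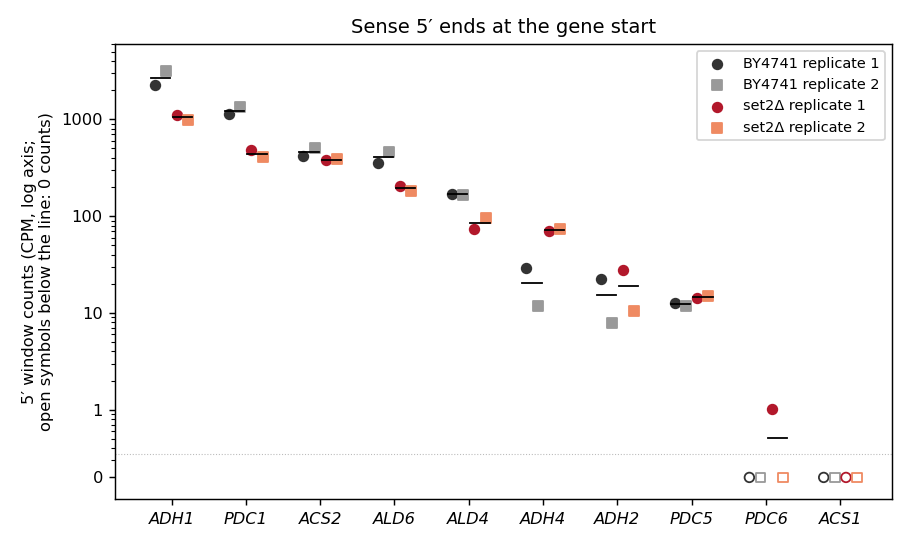
Sense 5′-end counts of the 10 genes in the window around the gene start, in CPM on a log axis, for each library; short lines are strain means (n = 2) and open symbols are libraries with 0 counts. The levels run from 2696 CPM for ADH1 in BY4741 to 0 counts for ACS1, and ADH4 is the member with the largest rise.

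PDC1 (YLR044C, chrXII:232390-234081, minus strand) encodes the main pyruvate decarboxylase. Its 5′ window held 354 and 336 counts in the BY4741 libraries against 468 and 349 in the set2Δ libraries. Scaled, this was 1230 ± 139 CPM in BY4741 and 442 ± 50.5 CPM in set2Δ (SD, n = 2), with both set2Δ libraries below both BY4741 libraries, an arrangement shared by 36% of the tested genes. The log2 fold change was -1.47 (SE 0.12, adjusted p = 6.13e-32). PDC5 (YLR134W, chrXII:410723-412414, plus strand), a minor isozyme known to rise when PDC1 is absent, had 4 and 3 counts in BY4741 against 14 and 13 in set2Δ. Its log2 fold change of 0.24 (SE 0.67) did not pass the test (adjusted p = 0.771). PDC6 (YGR087C, chrVII:651290-652981, minus strand), a further minor isozyme, had a single count, in set2Δ replicate 1, and was not tested. A count of 0 allows up to 6.62 to 7.99 CPM of the library total in the BY4741 libraries and 2.37 to 2.73 in the set2Δ libraries.

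ADH1 (YOL086C, chrXV:159548-160594, minus strand), which encodes the enzyme that makes ethanol, was the most used member, with 702 and 796 counts in BY4741 against 1098 and 842 in set2Δ. Its level was 2696 ± 638 CPM in BY4741 and 1050 ± 99.3 CPM in set2Δ (SD, n = 2). Both set2Δ libraries were again lower, as in 36% of the tested genes. The log2 fold change was -1.35 (SE 0.12, adjusted p = 5.53e-27), but with cyclic loess offsets, which scale each gene by genes of like abundance, it was -0.14 and not called (adjusted p = 0.249). In BY4741, ADH1 was above PDC1 in both libraries, by more than the spread within the strain, and PDC1 was above all other members. In set2Δ the order was again ADH1 and then PDC1, with ACS2 at 381 and 385 CPM just under the lower PDC1 library at 406 CPM.

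ADH2 (YMR303C, chrXIII:873291-874337, minus strand), the glucose-repressed enzyme that oxidises ethanol, had 7 and 2 counts in BY4741 against 27 and 9 in set2Δ. The scaled values overlapped between the strains, and the log2 fold change of 0.29 (SE 0.58) did not pass the test (adjusted p = 0.677). In BY4741 the scaled levels of ADH2, ADH4 and PDC5 overlapped, so no order among these 3 can be given.

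ADH4 (YGL256W, chrVII:15159-16307, plus strand), an alcohol dehydrogenase of a separate family, had 9 and 3 counts in BY4741 against 68 and 64 in set2Δ. It went from 20.3 ± 11.97 CPM to 72.0 ± 3.61 CPM (SD, n = 2), with both set2Δ libraries above both BY4741 libraries, as in 43.8% of the tested genes. The log2 fold change was 1.75 (SE 0.38, adjusted p = 1.81e-05). It ranged from 1.31 without BY4741 replicate 2 to 2.55 without BY4741 replicate 1, and at 0.91 was not called with cyclic loess offsets and positions of 8 or more counts left out (adjusted p = 0.148). A separate group of starts lay farther upstream, 520 to 480 bp before the gene by bounds set after the positions were seen, with 17 and 14 counts in BY4741 against 51 and 47 in set2Δ. In CPM of the unscaled library total this upstream group was 37.5 and 37.3 in BY4741 against 40.2 and 42.7 in set2Δ, whereas the 250 bp next to the gene gave 19.9 and 7.99 in BY4741 against 52.9 and 57.3 in set2Δ. With neighbouring bases from 560 to 440 bp upstream included, the upstream group was 37.5 and 37.3 in BY4741 against 48.1 and 47.3 in set2Δ, so its size in set2Δ depends on the bounds. The ratio of the upstream and the proximal group was not tested, and with the window extended to 500 bp upstream the log2 fold change was 0.69 (adjusted p = 0.0177). The top position of the upstream group, 498 bp before the gene, had 6, 4, 13 and 14 counts and is shown for comparison with the proximal start above.

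ADH4 upstream start (chrVII:14641-14670, plus strand): accttcacggttaagcaacCAgtataattg

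ALD6 (YPL061W, chrXVI:432588-434090, plus strand), the cytosolic aldehyde dehydrogenase used on glucose, had 110 and 116 counts in BY4741 against 202 and 157 in set2Δ. It fell from 405 ± 75.5 CPM to 194 ± 16.6 CPM (SD, n = 2), and the log2 fold change was -1.04 (SE 0.14, adjusted p = 1.54e-12). ALD4 (YOR374W, chrXV:1039840-1041399, plus strand), the mitochondrial isozyme, had 53 and 42 counts in BY4741 against 72 and 82 in set2Δ. It fell from 168 ± 2.45 CPM to 84.5 ± 15.5 CPM, and the log2 fold change was -1.002 (SE 0.20, adjusted p = 3.02e-06), a call that was lost when each used base was counted once (-0.63, adjusted p = 0.197). In both genes both set2Δ libraries lay below both BY4741 libraries, as in 36% of the tested genes.

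ACS2 (YLR153C, chrXII:445524-447575, minus strand), the acetyl-CoA synthetase needed on glucose, had 132 and 127 counts in BY4741 against 373 and 331 in set2Δ. It had 462 ± 56.5 CPM in BY4741 and 383 ± 3.27 CPM in set2Δ (SD, n = 2), and its log2 fold change of -0.26 (SE 0.13) was just past the threshold (adjusted p = 0.0793). This call was lost with DESeq2 (adjusted p = 0.203) and turned into a rise of 0.28 with cyclic loess offsets (adjusted p = 0.0532). It was also lost without BY4741 replicate 2 (-0.15), without set2Δ replicate 1 (-0.25) and without set2Δ replicate 2 (-0.27). In BY4741 the levels of ACS2 and ALD6 overlapped. ACS1 (YAL054C, chrI:42881-45022, minus strand), the glucose-repressed isozyme, had 0 counts in its 5′ window in all 4 libraries.

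**Figure D2:**
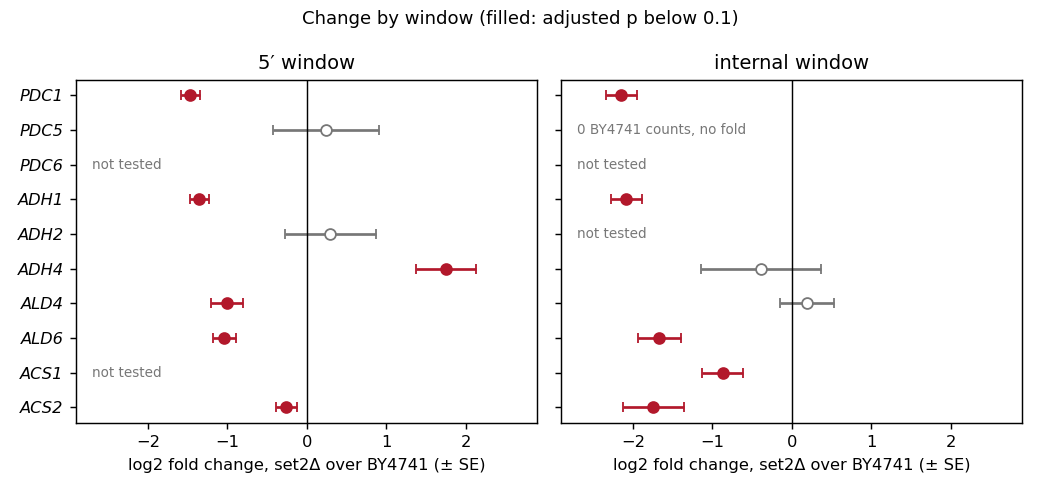
Log2 fold change, set2Δ over BY4741, with SE, for each gene in the 5′ window (left) and the internal window (right); filled red symbols passed an adjusted p of 0.1 in edgeR's quasi-likelihood test. ADH4 at 1.75 is the call above 0, and PDC1, ADH1, ALD6 and ACS2 lie below 0 in both windows with TMM scaling; with cyclic loess offsets ACS2 turned to 0.28 in the 5′ window, and ADH1 to 0.32 with high positions also left out.

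The 2 highest members also had the highest single positions, and at these the raw counts were nearly equal or lower in the set2Δ libraries. All deeper libraries are set2Δ, so depth and strain cannot be told apart in such a comparison. The main start of ADH1 had 72 and 81 counts in BY4741 against 67 and 61 in set2Δ, and that of PDC1 had 45 and 41 in BY4741 against 40 and 27 in set2Δ. The main start of ALD6 had 20 and 22 counts in BY4741 and 20 in each set2Δ library. At these 3 bases no set2Δ library was above a BY4741 library in raw counts.

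Over all members, positions were grouped by their count in BY4741 replicate 1 and then compared in the other libraries. The 208 positions with 1 to 3 counts gave 2.51 times as many counts in set2Δ replicate 1 as in BY4741 replicate 2, the 42 positions with 4 to 8 counts 1.93 times, and the 20 positions with 9 to 15 counts 1.28 times. The 25 positions with 16 or more, which lay in 4 genes, gave 621 counts in BY4741 replicate 2 and 646 in set2Δ replicate 1, a ratio of 1.04, where the library totals differ by 3.38 times. The ratio thus fell step by step as the positions became higher.

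**Figure D3:**
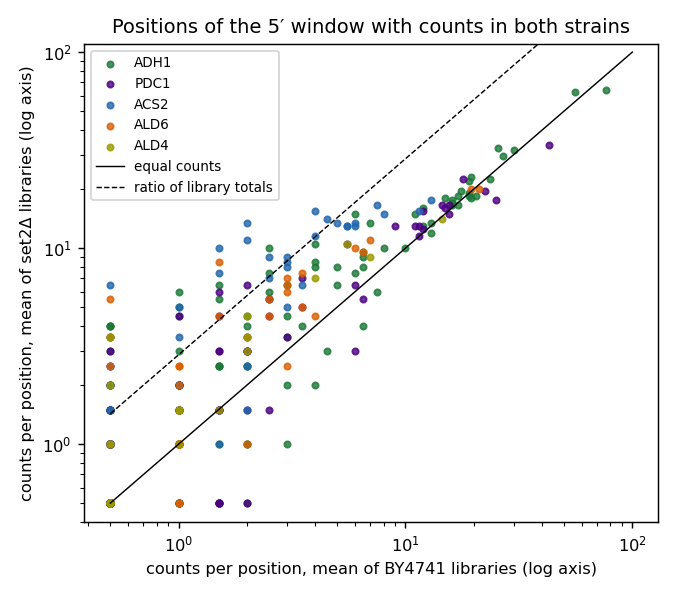
Counts per base in the 5′ windows of 5 genes, mean of the 2 BY4741 libraries against mean of the 2 set2Δ libraries, on log axes, for bases with counts in both strains. Low positions scatter widely around the solid line of equal counts and the dashed line of the library totals (2.86), and positions of 16 or more counts lie close to equal counts.

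With positions of 8 or more counts in any library left out, the falls were about as large. The log2 fold change was then -1.25 for ADH1 (adjusted p = 1.73e-09), -1.59 for PDC1 (adjusted p = 1.18e-13), -1.33 for ALD6 and -1.16 for ALD4, and all 4 stayed called. They also stayed called without the highest position of each gene, at -1.44 for ADH1 and -1.54 for PDC1. With these positions left out and cyclic loess offsets as well, a combination chosen after the data were seen, ADH1 was at 0.32 (adjusted p = 0.14). With the offsets alone and with both, PDC1 stayed called at -0.65 (adjusted p = 7.60e-06) and -0.45 (adjusted p = 0.0565), and ALD6 at -0.71 and -0.72. ALD4, whose main start had 16, 13, 14 and 14 counts, stayed called at -1.19 and -1.10. The deeper set2Δ libraries reach 8 counts more easily, so leaving out such positions depends on depth and thus on strain. The lower positions above also gained less than the library totals, 2.51 and 1.93 times against 3.38. Leaving out high positions therefore cannot tell position height from strain.

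The place of the starts moved by few bases in PDC1, ADH1, ALD4 and ALD6. ADH1 used 113 and 129 bases of the 5′ window in BY4741 against 189 and 152 in set2Δ, and its counts lay at a median of 37.5 and 37 bp upstream in BY4741 and 38 bp in both set2Δ libraries. Its main start took 10.3% and 10.2% of the window counts in BY4741 against 6.10% and 7.24% in set2Δ (95% Wilson intervals 8.22 to 12.7%, 8.26 to 12.5%, 4.83 to 7.68% and 5.68 to 9.20%). PDC1 had its median at 32 bp in both BY4741 libraries and at 33 and 36 bp in set2Δ, and ALD6 at 47 bp and ALD4 at 48 bp in all 4 libraries. ACS2 differed in shape, with starts of similar height at many bases and a median of 59 and 45 bp upstream in BY4741 against 68 and 67 bp in set2Δ. Its main start held only 13 counts in each BY4741 library and 18 and 17 in set2Δ.

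**Figure D4:**
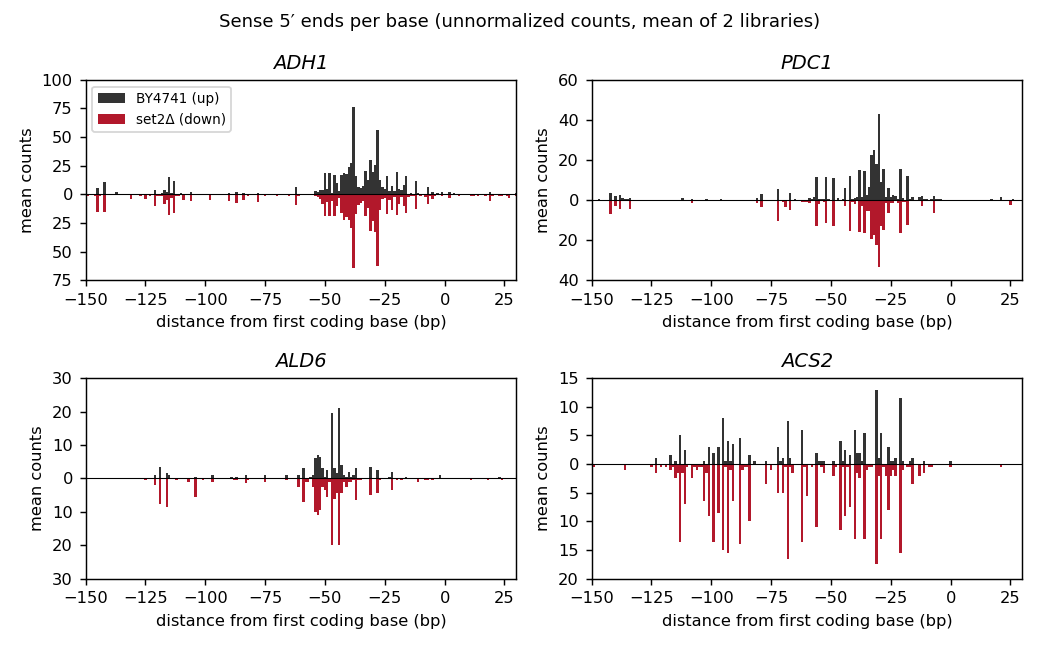
Mean raw counts of the 2 libraries per base around the start of ADH1, PDC1, ALD6 and ACS2, BY4741 upward and set2Δ downward, by distance from the first coding base. ADH1, PDC1 and ALD6 have a dominant cluster within 60 bp of the gene at the same bases in both strains, and ACS2 has many starts of similar height.

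Inside the genes, counts were summed from 200 bp after the start to the gene end. Internal 5′ ends of PDC1, ADH1, ALD6, ACS2 and ACS1 were lower in set2Δ, and no member was called higher (edgeR's quasi-likelihood test, Benjamini-Hochberg adjusted over 4726 genes). Of the 10 members, 8 passed the count filter. Among all tested genes 17.6% were called lower and 25% higher, and the median log2 fold change was -1.27 for the 8 members and 0.15 for all tested genes. These changes are relative to TMM scaling within the window. The median of all tested genes was 0.83 when the same counts were scaled to library totals and 1.00 when they were scaled to the 5′ window counts.

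PDC1 had 219 and 214 internal counts in BY4741 against 275 and 182 in set2Δ, which scaled to 5177 ± 1064 and 1156 ± 127 CPM of the internal window (SD, n = 2). Its log2 fold change was -2.15 (SE 0.19, adjusted p = 4.23e-26). ADH1 had 180 and 163 internal counts in BY4741 against 215 and 159 in set2Δ, or 4077 ± 622 and 952 ± 29.8 CPM. Its log2 fold change was -2.08 (SE 0.19, adjusted p = 2.72e-24). In both genes the raw internal counts were nearly equal in libraries that differ 2.86 times in depth, and the scaled values did not overlap, with both set2Δ libraries lower, as in 28.9% of the tested genes.

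ALD6 had 38 and 27 internal counts in BY4741 against 48 and 45 in set2Δ, with a log2 fold change of -1.67 (SE 0.27, adjusted p = 1.54e-08). ACS2 had 18 and 13 in BY4741 against 22 and 20 in set2Δ, with a log2 fold change of -1.74 (SE 0.38, adjusted p = 4.00e-05). The internal calls of PDC1, ADH1, ALD6 and ACS2 held at each of the other scalings, and the smallest falls were -0.91 for PDC1 and ADH1 with cyclic loess offsets and positions of 8 or more counts left out, and -0.81 for ALD6 and -0.89 for ACS2 with scaling to 5′ window counts. When set2Δ replicate 2 was left out, no gene of the whole table was called in the internal window by edgeR, whose adjusted p was then at least 0.103 although 1335 genes had an unadjusted p below 0.05, while DESeq2 called 89 genes higher and 136 lower.

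Internal ends of the remaining members were few. PDC5 had 0 internal counts in both BY4741 libraries and 8 and 4 in set2Δ, which did not pass the test (adjusted p = 0.132) and gives no fold, since 3 counts were allowed for the BY4741 libraries together. It was called higher when scaled to library totals (adjusted p = 0.0494) and to the 5′ window counts (adjusted p = 0.0353). At those scalings 1948 and 2197 of the 4726 tested genes were called higher. PDC5 passed the count filter through the set2Δ libraries alone, so its entry into the test depended on the strain in which it was high. ADH4 had 5 and 1 counts in BY4741 against 17 and 4 in set2Δ (log2 fold change -0.39, SE 0.76, adjusted p = 0.737). PDC6 with 0, 1, 1 and 1 counts and ADH2 with 0, 0, 2 and 0 were not tested. ADH1 and ADH2 are similar in sequence, and 82.8% of the internal bases of either gene start a run of 43 bases that occurs once in the genome. For PDC1 and PDC5 this share was 98.5%, in the 5′ windows it was at least 98.2%, and for the other members it was 100%. Reads with several alignments had been left out by the authors, so counts of the similar stretches are uncertain.

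ALD4 was called lower in its 5′ window but not in its internal window. It had 9 and 15 internal counts in BY4741 against 73 and 53 in set2Δ. On the scale of the internal window this was 299 ± 165 CPM in BY4741 and 320 ± 14.2 CPM in set2Δ (SD, n = 2), which overlapped, and the log2 fold change of 0.19 (SE 0.34) did not pass the test (adjusted p = 0.715). With the counts scaled to library totals it was 0.87 (adjusted p = 0.0325), and with scaling to the 5′ window counts 1.04 (adjusted p = 0.01), whereas with cyclic loess offsets it was -0.16 (adjusted p = 0.755). At library totals the median of all tested genes was 0.83, and 1948 of 4726 genes were called higher. At the scaling to 5′ window counts these values were 1.00 and 2197, so ALD4 lay close to the median gene at both. The internal share of all ALD4 sense counts was 14.5% and 26.3% in BY4741 against 50.3% and 39.3% in set2Δ (95% Wilson intervals 7.83 to 25.3%, 16.6 to 39.0%, 42.3 to 58.4% and 31.4 to 47.7%). Both set2Δ libraries were thus above both BY4741 libraries. The fraction of genes whose share has this arrangement was not determined. The share of all counted genes together, given below, was also higher in both set2Δ libraries, so the arrangement alone does not set ALD4 apart.

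The change of each gene in the internal window was also set against its own change in the 5′ window. This was the strain by window interaction in edgeR's quasi-likelihood test, with library as a factor and p-values adjusted over 4495 genes by Benjamini-Hochberg. TMM scaling was done within each window, and the scaled size of set2Δ libraries over BY4741 was 3.25 in the 5′ window and 4.58 in the internal window. More or fewer internal ends are thus relative to the shift of all genes between the windows. ALD4 was called, at 1.22 on the log2 scale (SE 0.38, adjusted p = 0.0174), in the direction of more internal ends, as were 7.99% of the tested genes. ACS2 at -1.47 (SE 0.40, adjusted p = 0.00523), ADH1 at -0.73 (SE 0.18, adjusted p = 0.00192) and PDC1 at -0.65 (SE 0.18, adjusted p = 0.00659) were called in the direction of fewer internal ends, as were 6.63% of the tested genes. ALD6 at -0.62 (adjusted p = 0.175) and ADH4 at -2.09 (adjusted p = 0.136) were not called, and neither was PDC5 (adjusted p = 0.324). The call of ALD4 was lost when positions of 8 or more counts were left out (1.16, adjusted p = 0.127), without BY4741 replicate 1 (0.72) and without set2Δ replicate 1 (0.88). The calls of ACS2, ADH1 and PDC1 were lost when both windows were scaled to library totals (-0.996, -0.25 and -0.18), that of PDC1 also without positions of 8 or more counts (-0.55), and those of ACS2 and ADH1 without BY4741 replicate 1 (-1.26 and -0.57). ALD6 was called without BY4741 replicate 2 (-0.89) and ADH4 without set2Δ replicate 1 (-3.40).

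Summed over the 10 members, the internal share of sense counts was 26.8% and 24.4% in BY4741 against 24.1% and 22.6% in set2Δ. Over all counted genes this share was 12.002% and 10.8% in BY4741 against 20.9% and 19.2% in set2Δ. The share of all genes was thus higher in both set2Δ libraries, while the summed share of the 10 members was not. PDC1 and ADH1 weigh most in this sum, with 219 and 180 of its 503 internal counts in BY4741 replicate 1. By difference of strain means, the share rose in ALD4 (24.4 percentage points), PDC5 (29.9) and ADH2 (3.45). It fell in ADH4 (-17.4), ACS2 (-5.01), PDC1 (-2.92), ADH1 (-2.57) and ALD6 (-1.54). ACS1 stayed at 100%, and PDC6 had a library without counts. PDC5, ADH2 and ADH4 rest on few counts. A comparison of 2 against 2 libraries cannot give a two-sided exact permutation p below 0.33, so these shares are given as values.

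The internal 5′ ends of ALD4 and ACS1 differed in position and sequence from those of ADH1 and PDC1. In ALD4, 7 and 10 of the internal counts in BY4741 against 69 and 48 in set2Δ lay in a cluster at chrXV:1040790-1040990, whose bounds were set after the positions were seen, which is 77.8% and 66.7% of the internal counts in BY4741 against 94.5% and 90.6% in set2Δ. The cluster was 15.5 and 26.6 CPM of the library total in BY4741 against 54.4 and 43.7 in set2Δ. Its 3 bases with at least 5 counts in both set2Δ libraries are printed below, with the base before the start and the start in capitals.

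ALD4 base 992 (chrXV:1040811-1040840, plus strand, counts 1, 0, 6 and 5): ttgtgcgggttcaagggtgTAtgttgaaga
ALD4 base 1024 (chrXV:1040843-1040872, plus strand, counts 1, 0, 12 and 5): ctatttacgacaaattcatTGaagagttca
ALD4 base 1054 (chrXV:1040873-1040902, plus strand, counts 0, 4, 10 and 12): aagccgcttctgaatccatCAaggtgggcg

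The counts are in the order BY4741 replicate 1, BY4741 replicate 2, set2Δ replicate 1, set2Δ replicate 2. All 3 starts follow a pyrimidine and are purines. The deeper set2Δ libraries reach 5 counts more easily than the BY4741 libraries, so the minimum does not by itself separate the strains.

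ACS1 showed internal starts without any start at the gene's own 5′ end. It had 34 and 25 internal counts in BY4741 against 76 and 71 in set2Δ, so all of its sense counts were internal in every library. Scaled, this was 690 ± 4.08 CPM in BY4741 and 380 ± 50.7 CPM in set2Δ (SD, n = 2). Both set2Δ libraries were lower, as in 28.9% of the tested genes, and the log2 fold change was -0.87 (SE 0.26, adjusted p = 0.00384). The fall was lost when the counts were scaled to library totals (-0.19, adjusted p = 0.592) or to the 5′ window counts (-0.02, adjusted p = 0.964). The starts lay near the 3′ end of the coding sequence, and 88.2% and 88.0% of the internal counts in BY4741 against 94.7% and 91.5% in set2Δ were in the last of 3 equal parts of the window. A cluster at chrI:42922-43142, bounded in the same way, held 26 and 22 counts in BY4741 against 53 and 48 in set2Δ, or 57.4 and 58.6 CPM of the library total in BY4741 against 41.8 and 43.7 in set2Δ. The 2 bases with at least 5 counts in both libraries of a strain are shown, the first of which reached it in all 4 libraries.

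ACS1 base 1924 (chrI:43090-43119, minus strand, counts 9, 8, 14 and 13): atgatgaattacaagatatCAagaagcatt
ACS1 base 1957 (chrI:43057-43086, minus strand, counts 4, 3, 6 and 6): tctttactgttagaaaagaCAtcgggccat

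**Figure D5:**
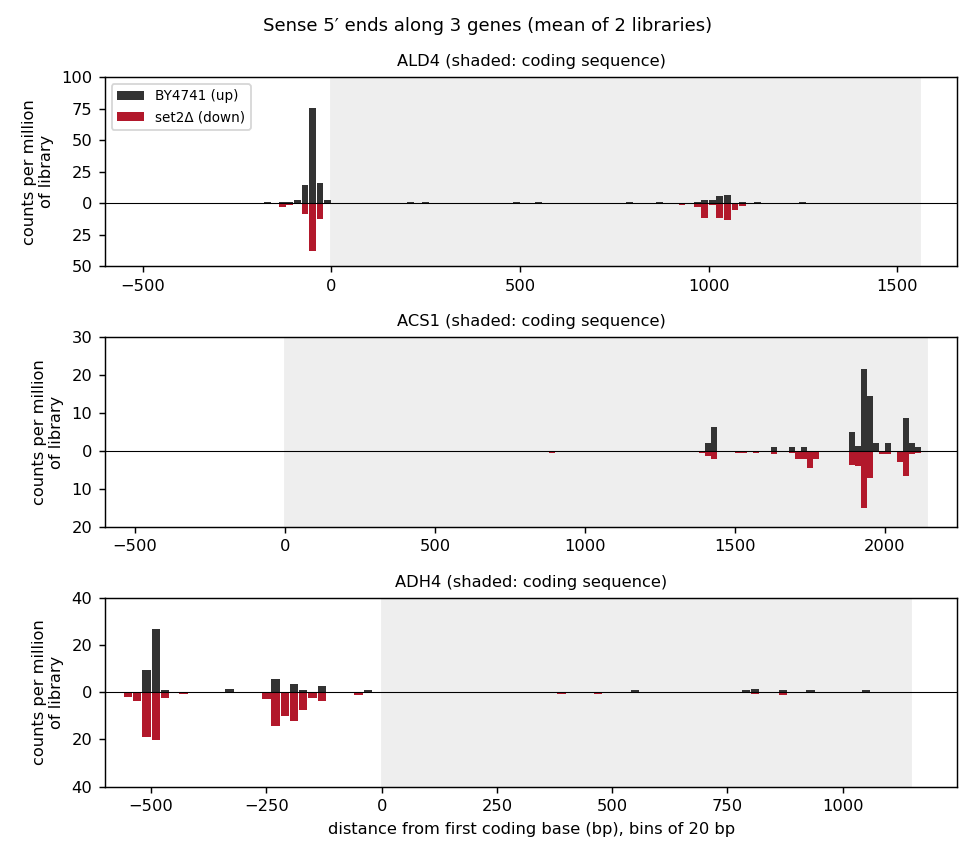
Sense 5′ ends, in CPM of the library total, along ALD4, ACS1 and ADH4 in bins of 20 bp, mean of 2 libraries, BY4741 upward and set2Δ downward; the coding sequence is shaded. ALD4 has a start at the gene and a cluster inside the coding sequence, ACS1 has starts near its 3′ end alone, and ADH4 has a group about 500 bp upstream in both strains and proximal starts that are higher in set2Δ.

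In PDC1, ADH1, ALD6 and ACS2 the internal ends were instead spread thinly over the gene. ADH1 used 141 and 129 internal bases in BY4741 against 156 and 121 in set2Δ, with 1.26 to 1.38 counts per used base, and PDC1 used 171 and 169 in BY4741 against 209 and 134 in set2Δ, with 1.27 to 1.36 counts per used base. For ALD6 and ACS2 the value was 1.00 to 1.12. At least 5 counts in both libraries of a strain were found at base 491 of ADH1 (5, 5, 0 and 1 counts) and at bases 765 (7, 6, 11 and 11 counts), 1161 (11, 5, 5 and 8) and 1436 (9, 7, 8 and 8) of PDC1. No base of ALD6 or ACS2 reached this minimum.

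The share of internal counts at the pyrimidine and purine pair also set ADH1 and PDC1 apart from ACS1 and ALD4. In ADH1 it was 20% and 26.4% in BY4741 against 26.0% and 18.2% in set2Δ, where 24.2% of the bases of the window have the pair. In PDC1 it was 18.7% and 21.5% in BY4741 against 21.5% and 22.5% in set2Δ, where 23.5% of the bases have it. Internal ends of these 2 genes thus lay at the pair about as often as the bases of the sequence do.

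In ACS1 the share was 85.3% and 92.0% in BY4741 against 78.9% and 87.3% in set2Δ, where 23.7% of the bases have the pair. In ALD4 it was 88.9% and 60.0% in BY4741 against 93.2% and 86.8% in set2Δ, where 23.5% have it, the BY4741 values resting on 9 and 15 counts. These shares lie in the range of the 5′ windows, where they were 55.8% to 60.0% in ADH1, 60.1% to 67.6% in PDC1, 82.8% to 84.9% in ACS2 and 76.8% to 88.7% in ALD4, or above it.

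ALD6 had 23.7% and 25.9% in BY4741 against 20.8% and 44.4% in set2Δ, where set2Δ replicate 2 stood apart with 45 counts. ACS2 had 27.8% and 7.69% in BY4741 against 13.6% and 30.0% in set2Δ, on 13 to 22 counts per library. Over the internal windows of all counted genes the share was 34.4% and 33.1% in BY4741 against 55.8% and 58.1% in set2Δ, so it was higher in both set2Δ libraries across the genome, whereas in ADH1 and PDC1 it stayed within 18.2% to 26.4% in all 4 libraries. What the ends outside the pair derive from was not tested.

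On the opposite strand the members gave few 5′ ends. Antisense counts were taken over the internal window where no other gene's 5′ window lies, and 2 of the 10 members passed the filter of 10 counts. ACS1 had 8 and 13 antisense counts in BY4741 against 20 and 10 in set2Δ, and was called lower (log2 fold change -1.88, SE 0.49, adjusted p = 0.00253, edgeR's quasi-likelihood test, Benjamini-Hochberg adjusted over 1477 genes). Among all tested genes 4.4% were called lower and 18% higher, with a median log2 fold change of 1.23. This median depended on the filter, at 0.46 over 331 genes with edgeR's filterByExpr and 1.83 over 4134 genes without a filter. The median of the 2 members was -1.14. A group of these ends lay at chrI:43402-43572, with 5 and 10 counts in BY4741 against 14 and 7 in set2Δ. In CPM of the library total, ACS1 antisense was 17.7 and 34.6 in BY4741 against 15.8 and 9.10 in set2Δ, and the call was lost with scaling to the 5′ window counts (-0.83, adjusted p = 0.149) and without BY4741 replicate 2 (-1.50).

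ADH2 had 2 antisense counts in each BY4741 library and 11 and 5 in set2Δ, with a log2 fold change of -0.41 (SE 0.91, adjusted p = 0.757). The other 8 members had at most 3 antisense counts in any library, and ADH4 and ALD6 had 0 in all 4. Neither of the 2 tested members was called higher on the antisense strand, and the other 8 had too few counts to be called either way.

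Other genes of the pathway were examined as a list of 25, made up of further alcohol and aldehyde dehydrogenases, carriers of acetate and other carboxylates, acetyl-CoA hydrolase, the pyruvate dehydrogenase complex and regulators. In the 5′ window 18 were tested, 10 were called lower and 3 higher, with a median log2 fold change of -0.52, where 30.2% of all tested genes were called lower and 32.3% higher with a median of 0.11. The largest falls were those of ALD2, a stress-induced cytosolic aldehyde dehydrogenase (19 and 36 counts in BY4741, 32 and 30 in set2Δ, log2 fold change -1.52, adjusted p = 7.49e-07), and of PDA1 (-1.39, adjusted p = 4.84e-27) and PDB1 (-1.16, adjusted p = 8.57e-19), the alpha and beta subunits of the first enzyme of the pyruvate dehydrogenase complex. The genes called higher encode regulators. PDC2, an activator of the pyruvate decarboxylase genes, had 8 and 5 counts in BY4741 against 71 and 59 in set2Δ (log2 fold change 1.61, SE 0.37, adjusted p = 5.98e-05). MIG1, a glucose repressor, had 23 and 19 in BY4741 against 115 and 104 in set2Δ (0.68, adjusted p = 0.00906), and HAA1, an activator of the response to weak acids, had 1 and 0 in BY4741 against 16 and 10 in set2Δ (adjusted p = 0.0227). HAA1 passed the count filter almost only through the set2Δ libraries, so its entry into the test depended on the strain in which it was high.

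In the internal window 22 genes of the list were tested, 6 were called lower and 2 higher, with a median log2 fold change of -0.28, where 17.6% of all tested genes were called lower and 25% higher with a median of 0.15. ADH7, an alcohol dehydrogenase that can use NADPH, fell from 22 and 14 counts in BY4741 to 1 and 3 in set2Δ (log2 fold change -5.22, SE 0.58, adjusted p = 1.79e-17), and PDA1 (-2.33) and PDB1 (-1.83) came next. PDC2 was higher in the internal window too (4 counts in each BY4741 library, 69 and 39 in set2Δ, log2 fold change 1.54, adjusted p = 0.00501). CAT8, an activator of gluconeogenic genes, had 0 internal counts in BY4741 against 5 and 12 in set2Δ and was called higher (adjusted p = 0.0589), at least 1.24-fold higher against a floor of 3 counts over the BY4741 libraries. It passed the count filter through the set2Δ libraries alone, so its entry into the test depended on the strain in which it was high. On the antisense strand, where 4.4% of all tested genes were called lower and 18% higher, 5 genes of the list were tested and ADH7 alone was called, lower in set2Δ (9 and 2 counts in BY4741, 3 and 0 in set2Δ, adjusted p = 0.000152).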

How the data were processed

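The authors deposited, for each library and strand, whole-number counts of capped RNA 5′ ends per base, without normalization. Per the paper's methods, Novoalign placed the reads on R64-1-1, and reads with several alignments were excluded, and the submitters' processing notes also name CASAVA 1.8.2. Whether reads of the same random barcode of 8 nt were collapsed is not given in the sources used here. Minus-strand positions were moved by 42 bp, after which 77.0 to 78.8% of positions with at least 5 counts followed a pyrimidine with a purine, against 23.4 to 23.8% as listed.

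Counts were summed per gene in 3 windows, leaving out bases in another gene of the same strand. The test, for genes of 10 or more counts summed over the 4 libraries, was the quasi-likelihood test of edgeR 4.0.16 (TMM scaling, Benjamini-Hochberg over all genes tested, adjusted p below 0.1) in R 4.3.3. SE is the log2 fold change divided by the root of F. The fits were tested on simulated data at the observed depths. They found 87.8% of the changed genes in the 5′ window, 59.4% in the internal window and 23.6% on the antisense strand. Of the genes called there, 5.46%, 6.72% and 2.63% had not been changed. Small changes such as that of ACS2 in the 5′ window were not simulated, and the noise was drawn at 1 spread common to all genes. The shares found therefore do not give the power for small changes or for noisier genes. Alternatives used DESeq2 1.42.0, limma 3.58.1 (cyclic loess), other scalings, filters and windows, positions of 8 or more counts left out, a replicate block, and each library left out. Cyclic loess together with leaving out high positions was added after the data were seen. Wilson intervals are at 95% and cover counting error only, as does the floor of 3 counts.

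The members, lists and tests were chosen with earlier results of these data known. Named genes were all 10 members and, of the list of 25, up to 3 called genes in each direction and window. Replicates of a strain differed by more than sampling noise (chi-square per degree of freedom 1.16 to 1.48) and were kept as separate samples. Nothing beyond the words biological duplicates says which steps they share, so part of the spread between these libraries may be technical. The p-values use a spread that edgeR moderates across all genes, not that of each gene alone. The common value of this spread beyond counting error was 4.90% in the 5′ window and 8.15% in the internal window. In the internal window the prior degrees of freedom of the dispersion estimate were infinite, so that estimate gave no weight to a gene's own replicates. Small internal p-values therefore do not show that the replicates of a gene lay close together. ADH1 had 2245 and 3147 CPM in the 5′ window of BY4741, so its small p-value does not rest on its own replicate spread alone.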

Additional observations from a re-analysis of the deposited data

How the results depend on the processing

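Over 24 alternatives, 337 of 401 values of the member results kept direction and side of the threshold, 32 fell short of it, 6 passed it and 26 turned sign. In the 5′ window the genes called higher, 1631, were 690 with DESeq2, 905 without positions of 8 or more counts, 391 with each used base counted once and 766 with cyclic loess offsets and those positions left out, and the genes called lower, 1526, were 661 and 783 in the last 2 of these. Genes called higher in the internal window, 1180, were 618 with DESeq2, 1948 when scaled to library totals and 2197 when scaled to 5′ window counts, and genes called lower, 834, were 459, 345 and 264. Genes called higher on the antisense strand, 266, were 79 with DESeq2, 805 when scaled to library totals, 878 when scaled to 5′ window counts, 87 with cyclic loess and 85 with it and without high positions, 122 with filterByExpr and over the whole gene, 134 at an adjusted p of 0.05 and 127 without the highest position. Genes called lower, 65, were 39 with DESeq2, 30 and 20 at the library-total and 5′ scalings, and 35 without a filter. The interaction gave 702 genes higher in place of 359, and 75 lower in place of 298, at library totals. Leaving out 1 library gave 1127 to 1325 genes higher and 1324 to 1404 lower in the 5′ window, 0 to 949 and 0 to 762 in the internal window, 42 to 91 and 36 to 54 antisense, and 186 to 233 and 144 to 237 for the interaction. The internal share of the members, 2.26 percentage points lower in set2Δ (-2.26), was -13.2 without high positions and -5.97 with each used base counted once. The causes of these shifts were not tested.

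Signs turned for PDC5 in the 5′ window with cyclic loess (-0.60), without high positions (-0.30) and with both (-0.76), and for ADH2 there (-0.53, -0.24 and -0.78, with -0.21 for used bases counted once and -0.59 to 1.26 with 1 library left out). ACS2 turned to 0.28 with cyclic loess and 0.073 with both, and ADH1 to 0.32 with both. Internal ADH4 turned to 0.28 at library totals and 0.46 at the 5′ scaling (-1.67 to 0.92 with 1 library left out). Internal ALD4 turned to -0.16 with cyclic loess, -0.045 with filterByExpr, -0.056 without high positions, -0.75 for used bases counted once and -0.33 with cyclic loess and no high positions (-0.37 to 0.74 with 1 library left out). Antisense ADH2 turned to 0.47 at library totals, 0.64 at the 5′ scaling and 0.088 without a filter.

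The replicate numbers are shared between the strains. Same-numbered libraries did not deviate together (correlations -0.051 to -0.00046 over 2 pairs), but so few libraries cannot show whether they shared steps. A replicate block gave 120 antisense genes higher and 42 lower and removed the 5′ call of ACS2 (adjusted p = 0.112); it moved no other member result of the 5′, internal and antisense windows across the threshold, and was not run for the interaction, whose fit has library as a term. At 375442 to 1267578 counts per library, PDC6, ADH2 and PDC5 had at most 27 counts in any 5′ window, where SE was 0.67 for PDC5 and 0.58 for ADH2 on the log2 scale.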
